A study of Mus musculus with 22 samples.

Results

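The transcripts of the MAPKAP kinases, Mapkapk2 (encoding MK2), Mapkapk3 (MK3) and Mapkapk5 (MK5, also called PRAK), were followed probe by probe in bone marrow-derived macrophages (BMDM). Every array probe whose RefSeq accession belongs to 1 of these 3 genes was taken, whatever its signal, which gave 4 of 55681 non-control probes for 3 of 20887 genes with a RefSeq accession. Mapkapk2 (NM_008551) had the probe A_52_P15008, Mapkapk3 (NM_178907) the probe A_55_P2009762, and Mapkapk5 (NM_010765) the probes A_55_P2049256 and A_55_P2163009. All 4 passed the filter on low signal, which left 28103 probes, and all 88 values (4 probes on 22 arrays) were well above background, with 0 saturated and 0 marked as outliers.

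MAPKAP kinases are serine/threonine kinases that act one step below the MAP kinases. MK2 and MK3 are close relatives which p38 MAP kinase binds and activates, and in macrophages stimulated through Toll-like receptors they are best known for phosphorylating proteins that bind AU-rich mRNAs, such as tristetraprolin. MK5 is more distant in sequence and is also activated by the atypical MAP kinases ERK3 and ERK4.

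BMDM were grown with M-CSF from the marrow of mice labelled C57BL/6 (C57BL/6J in the study's methods) and male, aged 10 to 14 weeks, which were wild-type (wt), lacked MK2 (MK2-/-) or lacked both MK2 and MK3 (MK2/3-/-). The cells received 100 ng/ml LPS (lipopolysaccharide), a molecule of Gram-negative bacteria that Toll-like receptor 4 senses, or medium alone for 360 min. Medium-treated cells were measured on 4 wt, 4 MK2-/- and 3 MK2/3-/- arrays and LPS-treated cells on 3, 4 and 4. No genotype lacking MK3 alone was analysed here, so a change of Mapkapk3 or Mapkapk5 could be tested for the loss of MK2 and for the joint loss only. The part of each gene that was deleted is not given in the sources used here, nor is the position of the probes, and a probe outside a deleted part does not test the deletion.

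Between 61.7% and 83.0% of the probes of an array were well above background. All arrays of a genotype lay on 1 slide, so genotype and slide cannot be told apart in any direct comparison of genotypes, whereas both treatments of a genotype were on the same slide. Both MK2-/- arrays of replicate letter c (replicate 3 of each treatment) had a mean log2 signal of 4 Y-linked genes of 2.08 and 2.33, against at least 6.85 on the other 20 arrays, although all animals are labelled male. All 7 macrophage markers found (of 8 sought) were well above background on all 22 arrays, and their summed log2 signal lay between 18.8 and 19.5. The fibroblast collagens Col1a1 and Col1a2 were also detected on all 22 arrays, with a summed level of 4 fibroblast markers from 8.69 to 16.6 across arrays. In bulk RNA of this kind, fewer cells of a type and less RNA per cell cannot be told apart.

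The sequence before the start of each gene is shown first, because the 3 genes went different ways with LPS: Mapkapk2 rose, Mapkapk3 fell in wt and MK2/3-/- BMDM, and Mapkapk5 was not called. RefSeq sequences for GRCm38.p6 gave 4 windows for the 3 genes, each of the 250 bases upstream of an annotated start, and all 3 genes lie on the minus strand. The Mapkapk2 window is chr1:131097844-131098093, the main Mapkapk3 window chr9:107289878-107290127 and the Mapkapk5 window chr5:121545893-121546142. Capitals mark the longest word that occurs more than once, TCCTCCCCTTTAAGG, in Mapkapk2 and the word TGACG, read on either strand, in the others.
Mapkapk2: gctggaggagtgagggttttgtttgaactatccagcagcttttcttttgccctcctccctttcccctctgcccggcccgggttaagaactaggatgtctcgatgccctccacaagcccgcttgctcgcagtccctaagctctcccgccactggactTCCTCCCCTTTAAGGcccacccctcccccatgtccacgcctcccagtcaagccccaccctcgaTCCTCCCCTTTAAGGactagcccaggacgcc
Mapkapk3: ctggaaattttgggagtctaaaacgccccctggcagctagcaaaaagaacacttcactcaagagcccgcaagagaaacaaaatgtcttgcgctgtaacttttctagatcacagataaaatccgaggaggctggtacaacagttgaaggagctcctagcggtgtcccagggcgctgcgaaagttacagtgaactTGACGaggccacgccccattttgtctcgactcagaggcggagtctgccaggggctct
Mapkapk5: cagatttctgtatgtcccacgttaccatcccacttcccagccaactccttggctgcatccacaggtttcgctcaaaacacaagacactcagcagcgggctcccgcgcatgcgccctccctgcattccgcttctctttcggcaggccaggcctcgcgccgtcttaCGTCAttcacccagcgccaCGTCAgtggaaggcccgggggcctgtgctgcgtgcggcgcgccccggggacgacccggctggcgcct

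The windows differed in base composition, with a G and C content of 60.4% for Mapkapk2, 51.6% for Mapkapk3 and 65.2% for Mapkapk5, and Mapkapk5 held 23 CpG dinucleotides against 9 and 11. Both strands were searched for words of factors that LPS activates. The NF-kB motif, the AP-1-like word TGANTCA and the cyclic AMP response element TGACGTCA were found in 3.9%, 6.75% and 1.55% of all 32851 upstream windows and in none of the 4 windows here, which says only that these letters are missing from these windows. The word TGACG, which is also the first part of the cyclic AMP response element, was found in 17.8% of all windows, at 57 bases before the Mapkapk3 start and at 86 and 67 bases before the Mapkapk5 start. The 15-base word repeated in Mapkapk2, chosen after the sequences were seen, begins 94 and 31 bases before its start and occurs in 3 of the 32851 windows. The other Mapkapk3 window held none of the 5 words.

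Mapkapk2 was the LPS-inducible member, and its probe still rose with LPS where the gene had been targeted. In wt BMDM its log2 signal was 12.09, 12.38, 10.78 and 12.42 in medium and 15.13, 14.32 and 15.42 after LPS. In MK2-/- BMDM it was 8.96, 9.00, 8.70 and 8.86 in medium and 11.70, 11.53, 11.25 and 11.94 after LPS. In MK2/3-/- BMDM it was 8.47, 8.50 and 8.34 in medium and 10.90, 11.21, 10.85 and 11.07 after LPS. Each LPS-treated array lay above each medium-treated array of its genotype, and each wt array above each knockout array of the same treatment. How many of all probes separate in this way, here and in the order of groups below, was not counted. Replicate 3 of medium-treated wt BMDM, at 10.78, was the lowest of its group.

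**Figure D1:**
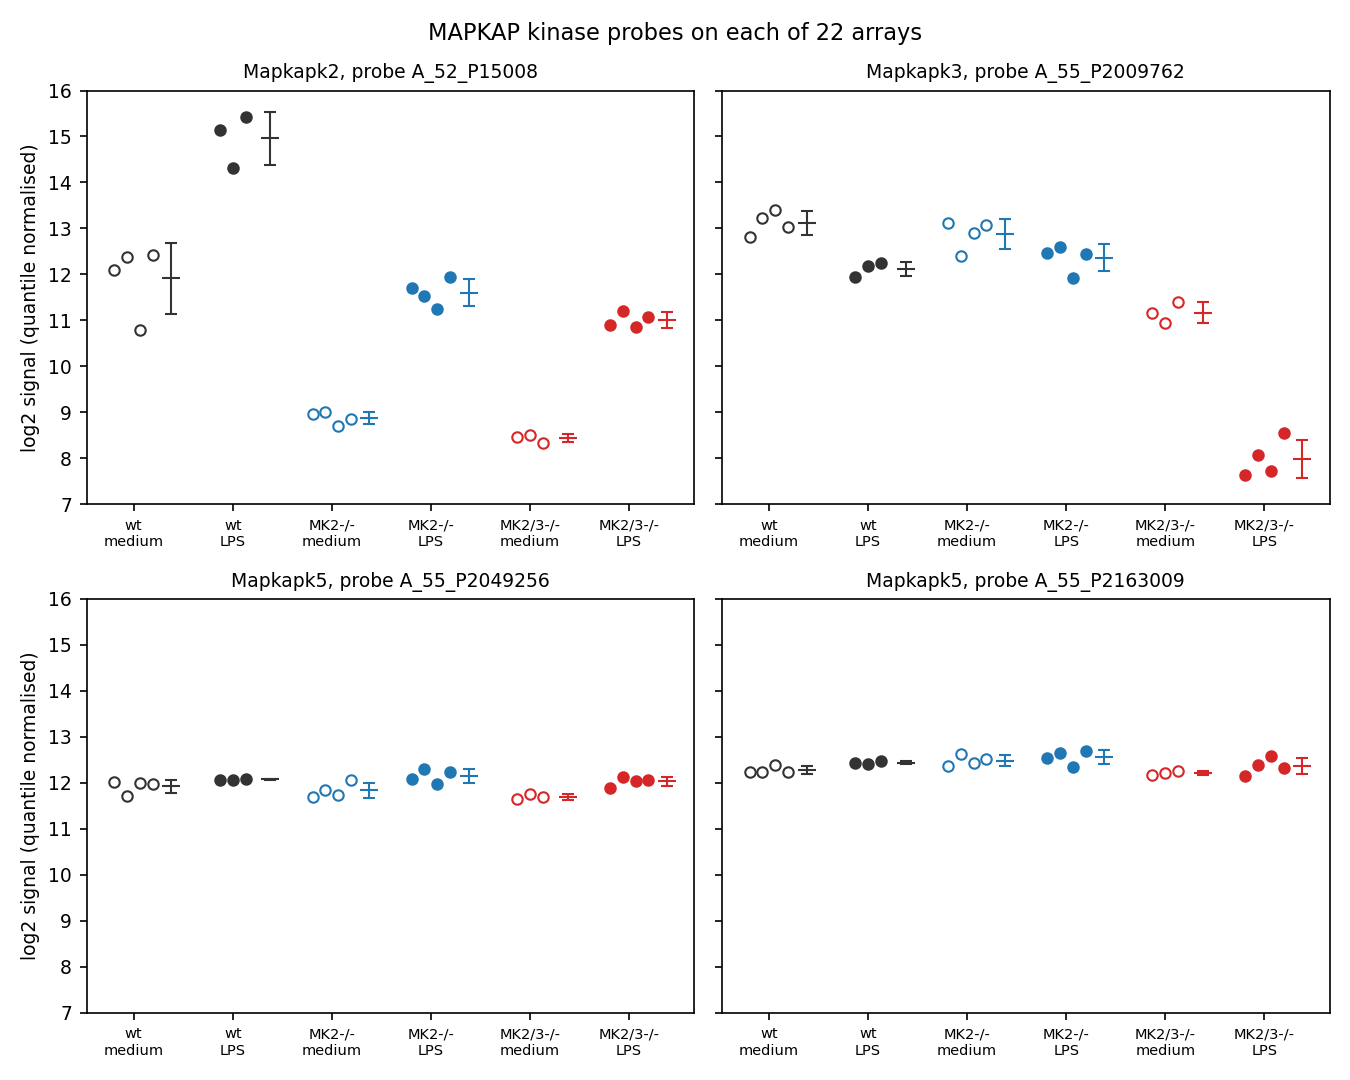
Log2 quantile-normalised signal of the Mapkapk2, Mapkapk3 and Mapkapk5 probes on each of 22 arrays, by genotype, with open points for medium, filled points for LPS and bars for the mean ± SD. Mapkapk2 rises with LPS in all 3 genotypes, Mapkapk3 falls to a mean of 7.99 in LPS-treated MK2/3-/- BMDM, and both Mapkapk5 probes stay between 11.64 and 12.69.

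The order of the 6 group means was wt LPS (14.96 ± 0.57, SD, n = 3), wt medium (11.92 ± 0.77, n = 4), MK2-/- LPS (11.60 ± 0.29, n = 4), MK2/3-/- LPS (11.01 ± 0.16, n = 4), MK2-/- medium (8.88 ± 0.13, n = 4) and MK2/3-/- medium (8.44 ± 0.09, n = 3). Among neighbours in this order only wt medium and MK2-/- LPS overlapped. LPS thus brought the mean Mapkapk2 signal of MK2-/- BMDM to within 0.32 of that in unstimulated wt BMDM, which was less than the spread between the wt arrays. This closeness and the overlap depended on replicate 3 of medium-treated wt BMDM. The other medium-treated wt arrays, at 12.09 to 12.42, lay above every LPS-treated MK2-/- array, the highest of which was 11.94. The medians of the 2 groups were 12.24 and 11.61. On the linear scale of the scanner, before normalisation, the probe read 19030 to 52650 in LPS-treated wt, 2285 to 3117 in LPS-treated MK2-/- and 387.3 to 497.5 in medium-treated MK2/3-/- BMDM.

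LPS raised Mapkapk2 by 3.04 on the log2 scale in wt (SE 0.32, 95% CI 2.38 to 3.70, limma adjusted p 3.41e-07), where 41.7% of all tested probes were called. The rise was 2.73 in MK2-/- (SE 0.29, adjusted p 2.64e-07; 45.1% of probes called) and 2.57 in MK2/3-/- BMDM (SE 0.32, adjusted p 1.48e-06; 48.2% called). Where arrays of a genotype carried the same replicate letter, the LPS-treated array exceeded the medium-treated one by 3.00 to 3.54 in 3 wt pairs, 2.53 to 3.08 in 4 MK2-/- pairs and 2.43 to 2.73 in 3 MK2/3-/- pairs. The differences of the response from that in wt were -0.31 in MK2-/- (95% CI -1.21 to 0.59, adjusted p 0.896; 0% of probes called) and -0.47 in MK2/3-/- BMDM (95% CI -1.40 to 0.47, adjusted p 0.791; 0.840% called), and neither was called. These intervals still allow a response lower by 1.21 or 1.40 than in wt. A summed level of 4 dendritic cell markers, 2 of which were detected on all 22 arrays, also moved with LPS, from 8.36 to 9.88 in medium to 12.6 to 15.1 after LPS over all genotypes, and its part in the LPS results was not tested. The summed level of 4 B cell markers, 2 of which were detected on all 22 arrays, went from 8.98 to 10.5 in medium to 7.55 to 8.54 after LPS, and its part was not tested either.

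**Figure D2:**
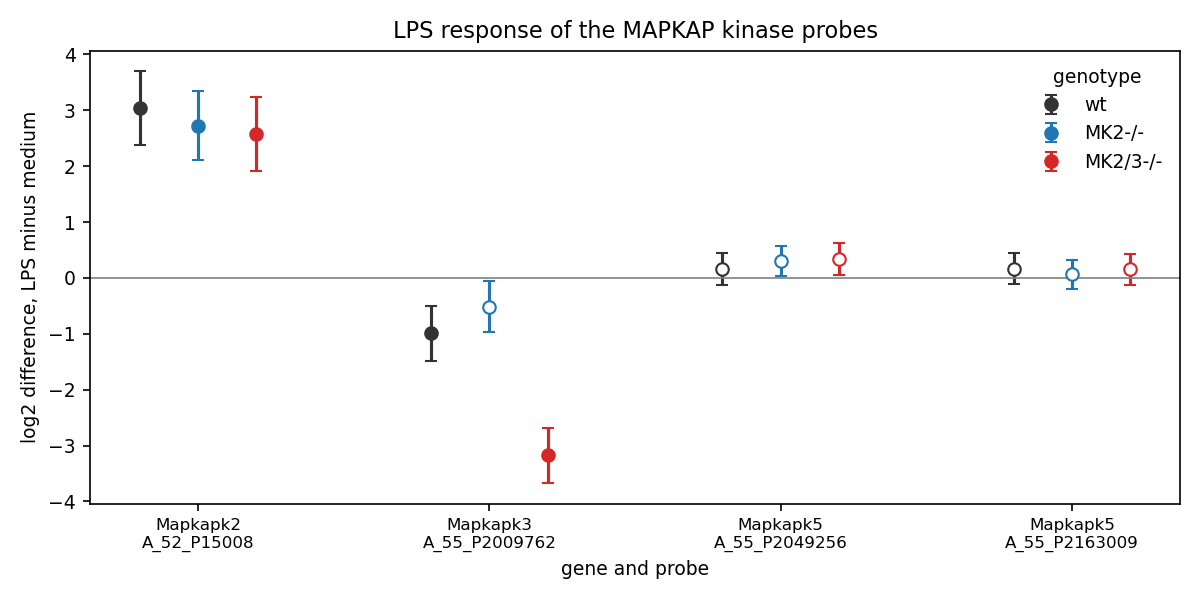
LPS response of the 4 probes in each genotype, as the log2 difference between LPS and medium with its 95% confidence interval from limma; filled points were called at an adjusted p below 0.05. Mapkapk2 responds by 3.04, 2.73 and 2.57 with overlapping intervals, whereas Mapkapk3 responds by -3.18 in MK2/3-/- BMDM against -0.99 in wt.

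The signal that remained of Mapkapk2 was expressed as a share of wt. After LPS it was 9.80% of wt in MK2-/- (95% CI 6.20% to 15.5%) and 6.48% in MK2/3-/- BMDM (4.10% to 10.2%), with log2 differences of -3.35 (adjusted p 1.71e-05; 11.6% of probes called) and -3.95 (adjusted p 1.54e-06; 23.9% called). In medium it was 12.2% (7.96% to 18.6%) and 9.0% (5.67% to 14.2%), with adjusted p-values of 3.16e-05 and 1.85e-05 where 7.76% and 1.89% of probes were called. Of the 28103 probes, 74 had a lower difference than Mapkapk2 between LPS-treated MK2-/- and wt BMDM, and 24 between MK2/3-/- and wt. Between the 2 knockouts, which share the targeting of Mapkapk2, every MK2/3-/- array lay below every MK2-/- array of the same treatment, and the share of all probes that separate so was not counted. The difference of Mapkapk2 was -0.60 after LPS (95% CI -1.21 to 0.01, adjusted p 0.188; 13.6% called) and -0.44 in medium (95% CI -1.10 to 0.22, adjusted p 0.575; 2.73% called). Averaged over treatments it was -0.52 (95% CI -0.97 to -0.07, adjusted p 0.109), so it did not pass the test where 16.5% of probes did. Without both MK2-/- arrays of letter c, the differences between MK2-/- and wt were -3.23 after LPS and -2.98 in medium. Summed T cell markers (1 of 4 detected on all 22 arrays, the defining Cd3g on 2) were higher in MK2-/- than in wt BMDM, at 11.1 to 12.3 against 9.80 to 10.7 in medium and 11.8 to 12.3 against 10.9 to 11.5 after LPS. The sum followed its brightest gene, Cd3e, with means of 11.58 against 10.29 in medium and 11.82 against 11.11 after LPS. Cd247 was lower in medium (4.128 against 4.404) and higher after LPS (8.835 against 8.027). Cd3d was 4.233 against 3.679 and 4.568 against 4.577, and Cd3g 2.013 against 2.007 and 2.023 against 2.153. The part of these markers in the genotype results was not tested. The collagens also moved with genotype, with mean log2 signals in medium and after LPS of 12.4 and 12.56 in wt, 9.5 and 9.12 in MK2-/- and 8.84 and 9.20 in MK2/3-/- BMDM for Col1a1. For Col1a2 they were 13.57 and 14.11, 11.84 and 11.57, and 11.1 and 11.32. Dcn, well above background on 19 arrays, went the other way after LPS, with 5.339 and 6.332, 4.555 and 8.008, and 6.17 and 8.154. Pdgfra, well above background on 2 arrays, had 3.757 and 3.941, 2.425 and 2.614, and 2.546 and 2.629. Summed over the 4 fibroblast markers, arrays of the genotypes overlapped, from 11.54 to 16.58 in wt, 10.28 to 14.61 in MK2-/- and 8.69 to 15.45 in MK2/3-/- BMDM in medium, and from 13.42 to 15.89, 10.34 to 14.18 and 9.79 to 14.86 after LPS. Their part in the genotype results was not tested either.

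**Figure D3:**
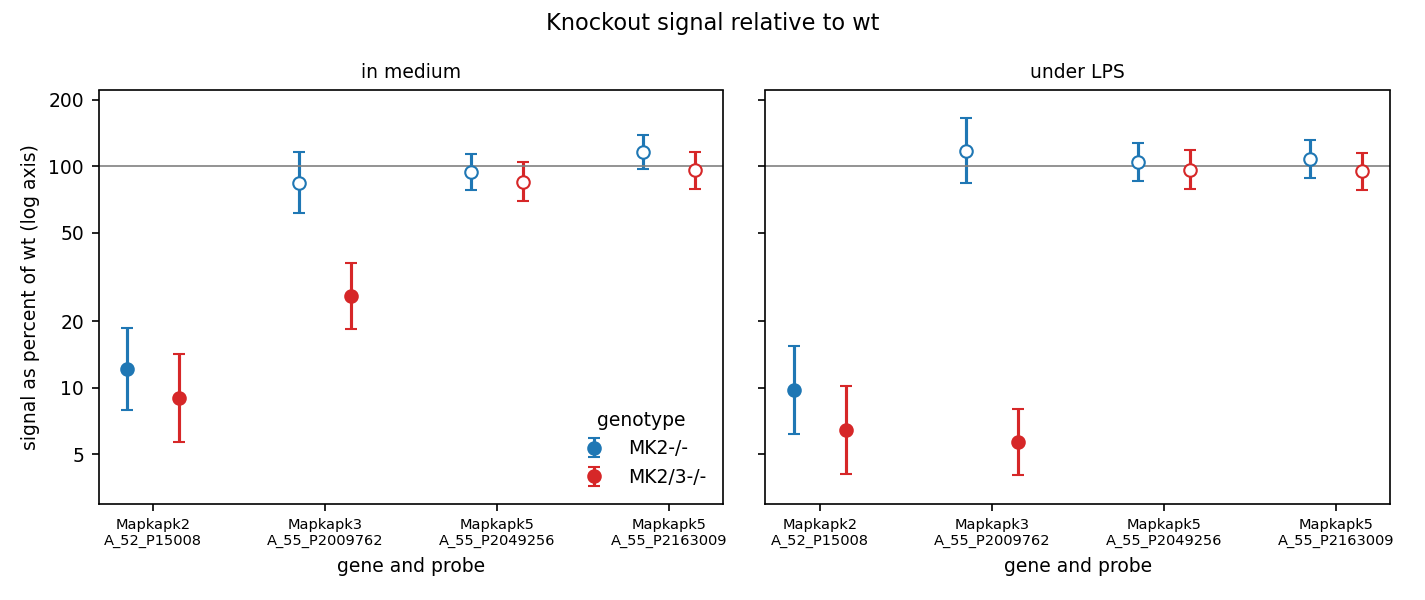
Signal of each probe in MK2-/- and MK2/3-/- BMDM as a percentage of wt at the same treatment, on a log axis, with 95% confidence intervals; filled points were called at an adjusted p below 0.05. Mapkapk2 keeps 6.48% to 12.2% of wt, Mapkapk3 25.9% in medium-treated but 5.71% in LPS-treated MK2/3-/- BMDM, and the intervals of both Mapkapk5 probes include 100%.

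Mapkapk3 behaved in the opposite way to Mapkapk2 on LPS treatment, and in MK2/3-/- BMDM its signal was lost far more after LPS than in medium. In wt BMDM its log2 signal was 12.81, 13.22, 13.40 and 13.03 in medium and 11.95, 12.18 and 12.24 after LPS. In MK2-/- BMDM it was 13.12, 12.40, 12.90 and 13.07 in medium and 12.47, 12.59, 11.93 and 12.45 after LPS. In MK2/3-/- BMDM it was 11.15, 10.95 and 11.40 in medium and 7.64, 8.06, 7.72 and 8.54 after LPS. LPS-treated and medium-treated arrays were separate in wt and in MK2/3-/- but overlapped in MK2-/- BMDM. How many of all probes separate in this way, here and in the order of groups that follows, was not counted. By group mean the order was wt medium (13.12 ± 0.25, SD, n = 4), MK2-/- medium (12.87 ± 0.33, n = 4), MK2-/- LPS (12.36 ± 0.29, n = 4), wt LPS (12.12 ± 0.15, n = 3), MK2/3-/- medium (11.17 ± 0.23, n = 3) and MK2/3-/- LPS (7.99 ± 0.41, n = 4). The 4 groups with an intact Mapkapk3 gene each overlapped the next in this order, and the 2 MK2/3-/- groups stood apart below them.

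LPS lowered Mapkapk3 by 0.99 in wt (log2 difference -0.99, SE 0.24, adjusted p 0.00219) and by 3.18 in MK2/3-/- BMDM (-3.18, SE 0.24, adjusted p 2.63e-09). In MK2-/- BMDM the difference of -0.51 (SE 0.22, 95% CI -0.97 to -0.06) had an adjusted p of 0.0636 and was not called, although it was called in 6 of 35 refits. Without both arrays of letter c it was -0.36 (adjusted p 0.267). Pairs of arrays with the same letter gave -1.22 to -0.79 in wt, -3.51 to -2.86 in MK2/3-/- and -0.97 to 0.19 in MK2-/- BMDM, where 1 of 4 pairs was higher after LPS. The response in MK2/3-/- BMDM was lower than that in wt by 2.18 (-2.18, SE 0.33, adjusted p 0.00859; 0.840% of probes called) and lower than that in MK2-/- BMDM by 2.66 (-2.66, SE 0.32, adjusted p 0.00154; 0.0569% called). No difference of the response was called between MK2-/- and wt (0.48, 95% CI -0.19 to 1.15, adjusted p 0.779), where 0 of 28103 probes passed, 2107 had an unadjusted p below 0.05, and 7 or 11 were called with the replicate number or letter as a block.

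Compared with MK2-/- BMDM, which share the deletion of MK2, the Mapkapk3 signal of MK2/3-/- BMDM was 30.7% in medium (95% CI 21.8% to 43.2%, adjusted p 0.000503) and 4.84% after LPS (3.53% to 6.65%, adjusted p 1.3e-09). Only 1 of the 28103 probes had a lower difference between these LPS-treated groups. Compared with wt the signal was 25.9% in medium (18.4% to 36.5%, adjusted p 0.000576) and 5.71% after LPS (4.05% to 8.03%, adjusted p 1.37e-08). On the linear scale before normalisation the probe read 149 to 322.5 in LPS-treated MK2/3-/- and 9863 to 14920 in medium-treated wt BMDM.

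Whether Mapkapk3 changes when only MK2 is missing was asked over both treatments together, which uses the most arrays. The mean signal in MK2-/- BMDM was 99.7% of wt, with a 95% CI from 79.0% to 125.8% (log2 difference -0.004, adjusted p 0.987), in a comparison that called 27.4% of all probes. Single treatments gave 118% after LPS (83.7% to 165.8%, log2 difference 0.24) and 84.4% in medium (61.5% to 115.8%). These values depended on the scaling. Under scaling to the 75th percentile the log2 differences were -0.26 over both treatments, -0.007 after LPS and -0.52 in medium. Relative to the median of all probes they were -0.23, 0.007 and -0.50. Without both arrays of letter c the mean log2 difference was 0.06 (adjusted p 0.812).

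Mapkapk5, which was targeted in none of the genotypes, was called in none of 30 limma tests over its 2 probes (15 per probe), with 3 at an unadjusted p below 0.05, and the methods' t-test called 1 of the 9 comparisons it covers at the first probe and 0 at the second. At the probe A_55_P2049256 the log2 signal in wt was 12.03, 11.71, 11.99 and 11.97 in medium and 12.07, 12.07 and 12.09 after LPS. In MK2-/- BMDM it was 11.70, 11.84, 11.74 and 12.07 in medium and 12.08, 12.30, 11.97 and 12.23 after LPS, and in MK2/3-/- BMDM 11.64, 11.76 and 11.69 in medium and 11.89, 12.13, 12.05 and 12.06 after LPS. LPS-treated and medium-treated arrays of wt and MK2/3-/- BMDM did not overlap at this probe, and the LPS-treated array was the higher in 10 of 10 pairs of the same letter, by 0.04 to 0.46. The share of all probes that separate or agree in this way was not counted, for this or the other Mapkapk5 probe. LPS comparisons called 41.7%, 45.1% and 48.2% of probes in wt, MK2-/- and MK2/3-/- BMDM. The differences were 0.15 in wt (adjusted p 0.399), 0.30 in MK2-/- (95% CI 0.04 to 0.57, adjusted p 0.0589) and 0.34 in MK2/3-/- BMDM (95% CI 0.05 to 0.62, adjusted p 0.0506).

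At the other probe, A_55_P2163009, the log2 signal in wt was 12.23, 12.23, 12.40 and 12.23 in medium and 12.43, 12.42 and 12.47 after LPS. In MK2-/- BMDM it was 12.36, 12.63, 12.44 and 12.51 in medium and 12.54, 12.64, 12.35 and 12.69 after LPS, and in MK2/3-/- BMDM 12.18, 12.21 and 12.25 in medium and 12.16, 12.38, 12.59 and 12.32 after LPS. The 2 treatments were separate in wt and overlapped in both knockouts, and the LPS-treated array was the higher in 8 of 10 pairs. LPS differences were 0.17, 0.07 and 0.15 in wt, MK2-/- and MK2/3-/- BMDM (adjusted p 0.349, 0.711 and 0.382). The 6 group means spanned 11.70 to 12.14 at the first probe and 12.21 to 12.56 at the second, and each group overlapped the next in the order at both probes.

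Over both treatments the Mapkapk5 signal in MK2-/- BMDM was 99.3% of wt at A_55_P2049256 (95% CI 86.7% to 113.7%) and 112% at A_55_P2163009 (98.0% to 128%). In MK2/3-/- BMDM it was 90.8% (78.9% to 104.6%) and 95.4% (83.1% to 109.5%), in a comparison that called 29.5% of all probes. The highest upper limit of the 4 intervals was thus 128% of wt and the lowest lower limit 78.9%. These values depended on the scaling. With the 75th percentile of each array in place of quantile normalisation, the mean log2 difference between MK2/3-/- and wt was -0.43 (adjusted p 0.00446) and -0.38 (adjusted p 0.00734), and that of A_55_P2163009 between MK2-/- and wt turned from 0.16 to -0.11. Under the same scaling LPS raised A_55_P2163009 in wt (0.46, adjusted p 0.0177), MK2-/- (0.39, adjusted p 0.0284) and MK2/3-/- BMDM (0.40, adjusted p 0.0373). It raised A_55_P2049256 in MK2-/- (0.52, adjusted p 0.00744) and MK2/3-/- BMDM (0.48, adjusted p 0.0174), and the value in wt was 0.38 (adjusted p 0.0574). Relative to the median of all probes, which this scaling moved by 0.28, 0.26 and 0.23, the LPS differences were 0.25, 0.16 and 0.19 at A_55_P2163009 and 0.17, 0.28 and 0.27 at A_55_P2049256. With the replicate number as a block and quantile normalisation kept, the LPS differences of A_55_P2049256 were called in MK2-/- (adjusted p 0.0413) and MK2/3-/- BMDM (adjusted p 0.037).

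**Figure D4:**
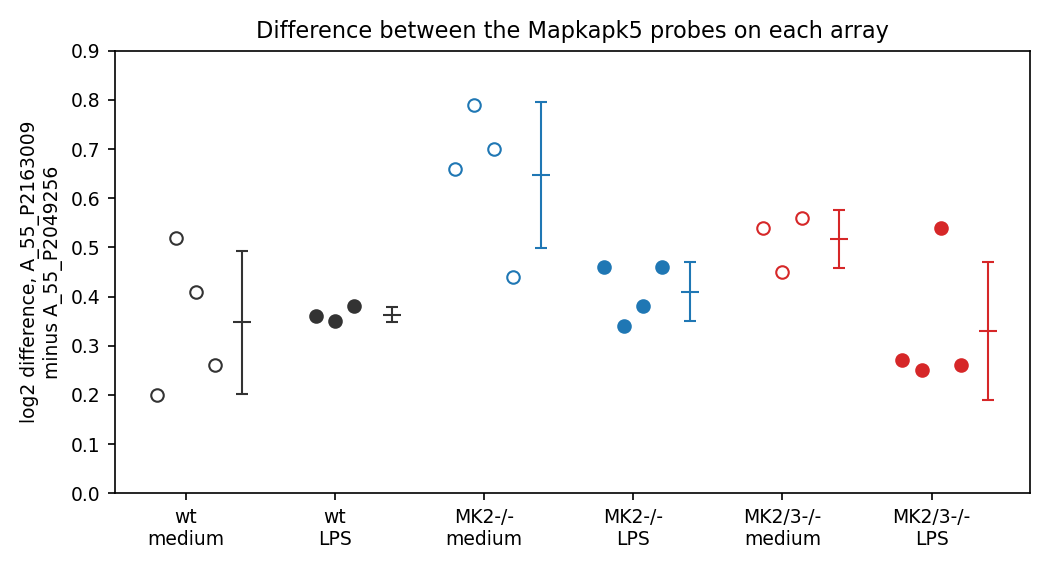
Within-array difference of log2 signal between the 2 Mapkapk5 probes (A_55_P2163009 minus A_55_P2049256) on each of 22 arrays, with open points for medium, filled points for LPS and bars for the mean ± SD. The difference is largest in medium-treated MK2-/- BMDM, with a mean of 0.65.

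The 2 Mapkapk5 probes were compared within arrays, which cancels the scaling of an array as far as it acts on both alike. Their difference was 0.35 ± 0.15 (SD, n = 4) in medium-treated and 0.36 ± 0.02 (n = 3) in LPS-treated wt BMDM, 0.65 ± 0.15 and 0.41 ± 0.06 (n = 4 each) in MK2-/- BMDM, and 0.52 ± 0.06 (n = 3) and 0.33 ± 0.14 (n = 4) in MK2/3-/- BMDM. In exact two-sided permutation tests within treatment or genotype, of which 4 were run, it was 0.17 larger in MK2-/- than in wt (p 0.0192, adjusted p 0.0408) and 0.14 smaller after LPS than in medium (-0.14, p 0.0204, adjusted p 0.0408). Neither of the other comparisons passed (MK2/3-/- against wt 0.07, exact p 0.3, and against MK2-/- -0.10, exact p 0.105). Each of the 2 calls was lost in 18 of 27 refits, 15 of them with 1 array left out, and the adjusted p reached 0.104 for the genotypes and 0.427 for LPS. The permutations moved single arrays, so arrays of the same genotype and replicate letter were counted as independent. No version that kept such arrays together was run.

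The kinases and adaptors upstream of MK2 and MK3 changed with LPS in both directions. Of 12 genes of the p38 branch, all measured, 4 rose and 3 fell in wt, 4 and 3 in MK2-/-, and 5 and 3 in MK2/3-/- BMDM, whereas of 18375 genes (1 probe each) 19.0% rose and 25.0% fell in wt, 18.6% and 29.0% in MK2-/-, and 20.8% and 29.9% in MK2/3-/- BMDM. The median log2 difference of the list was 0.07, 0.18 and 0.28 in the 3 genotypes, against -0.05, -0.03 and -0.02 over all genes. The falls included Mapk14, encoding p38alpha, an isoform that activates MK2. Its log2 differences were -2.79 in wt, -2.94 in MK2-/- and -4.88 in MK2/3-/- BMDM. Tab1, encoding an adaptor that binds the kinase TAK1 and p38alpha, fell in all 3 genotypes (-2.37, -3.15 and -3.63), as did Map2k6, a kinase that activates p38 (-2.32, -2.35 and -2.26). The mean signal of Map2k6 after LPS was only 4.427 in MK2-/- and 3.413 in MK2/3-/- BMDM, near the background limit. The sizes of its differences in these groups are therefore uncertain, here and below. Map2k4, an activator of JNK and p38, rose by 1.86, 2.06 and 1.54.

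Of the p38 branch, Tab1 was the 1 gene called between LPS-treated MK2-/- and wt BMDM (-0.79, adjusted p 0.0361), where 7.46% of all genes were lower, and 3 of 22 fits without 1 array lost it. Between MK2/3-/- and wt 3 of 12 genes were lower, Mapk14 (-2.21, adjusted p 0.000227), Tab1 (-1.63) and Map2k6 (-1.62). In this comparison 25.1% of all genes were called and 16.1% were lower. Between MK2/3-/- and MK2-/- 3 were lower, Mapk14 (-1.64, adjusted p 0.00176), Tab1 (-0.84) and Map2k3 (-0.70), another activator of p38, where 13.5% were called and 6.25% were lower. In medium Mapk12, encoding p38gamma, was lower in MK2-/- (-1.80, adjusted p 0.0369) and Map2k6 in MK2/3-/- than in wt (-1.68, adjusted p 0.0464), where 7.45% and 1.83% of genes were called. The first call was lost in 4 and the second in 12 of 22 fits that left out 1 array. Mapk12 had a mean signal of only 4.325 in medium-treated MK2-/- BMDM, near the background limit, so the size of its difference is uncertain. The fall of Mapk14 with LPS was itself larger in MK2/3-/- than in wt BMDM (-2.09, SE 0.47, adjusted p 0.0441). Its means were 13.96 ± 0.09 (SD, n = 4) and 11.16 ± 0.41 (n = 3) in medium-treated and LPS-treated wt, and 13.84 ± 0.12 (n = 3) and 8.95 ± 0.84 (n = 4) in MK2/3-/- BMDM. A different probe of Mapk14 gave -0.80 for this interaction (adjusted p 0.471) and the call of the first was lost in 15 of 22 fits without 1 array, whereas both probes fell with LPS in every genotype, with -1.91, -2.67 and -2.72 at the other. That probe also did not differ at the threshold between LPS-treated MK2/3-/- and MK2-/- BMDM (-0.22, adjusted p 0.653), but did against wt (-1.17, adjusted p 0.00721). The methods' t-test after adjustment called none of the 12 genes between LPS-treated genotypes. Averaged over both treatments, 2 of 12 were lower in MK2-/- and 4 in MK2/3-/- than in wt BMDM, where 14.5% and 18.0% of genes were.

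**Figure D5:**
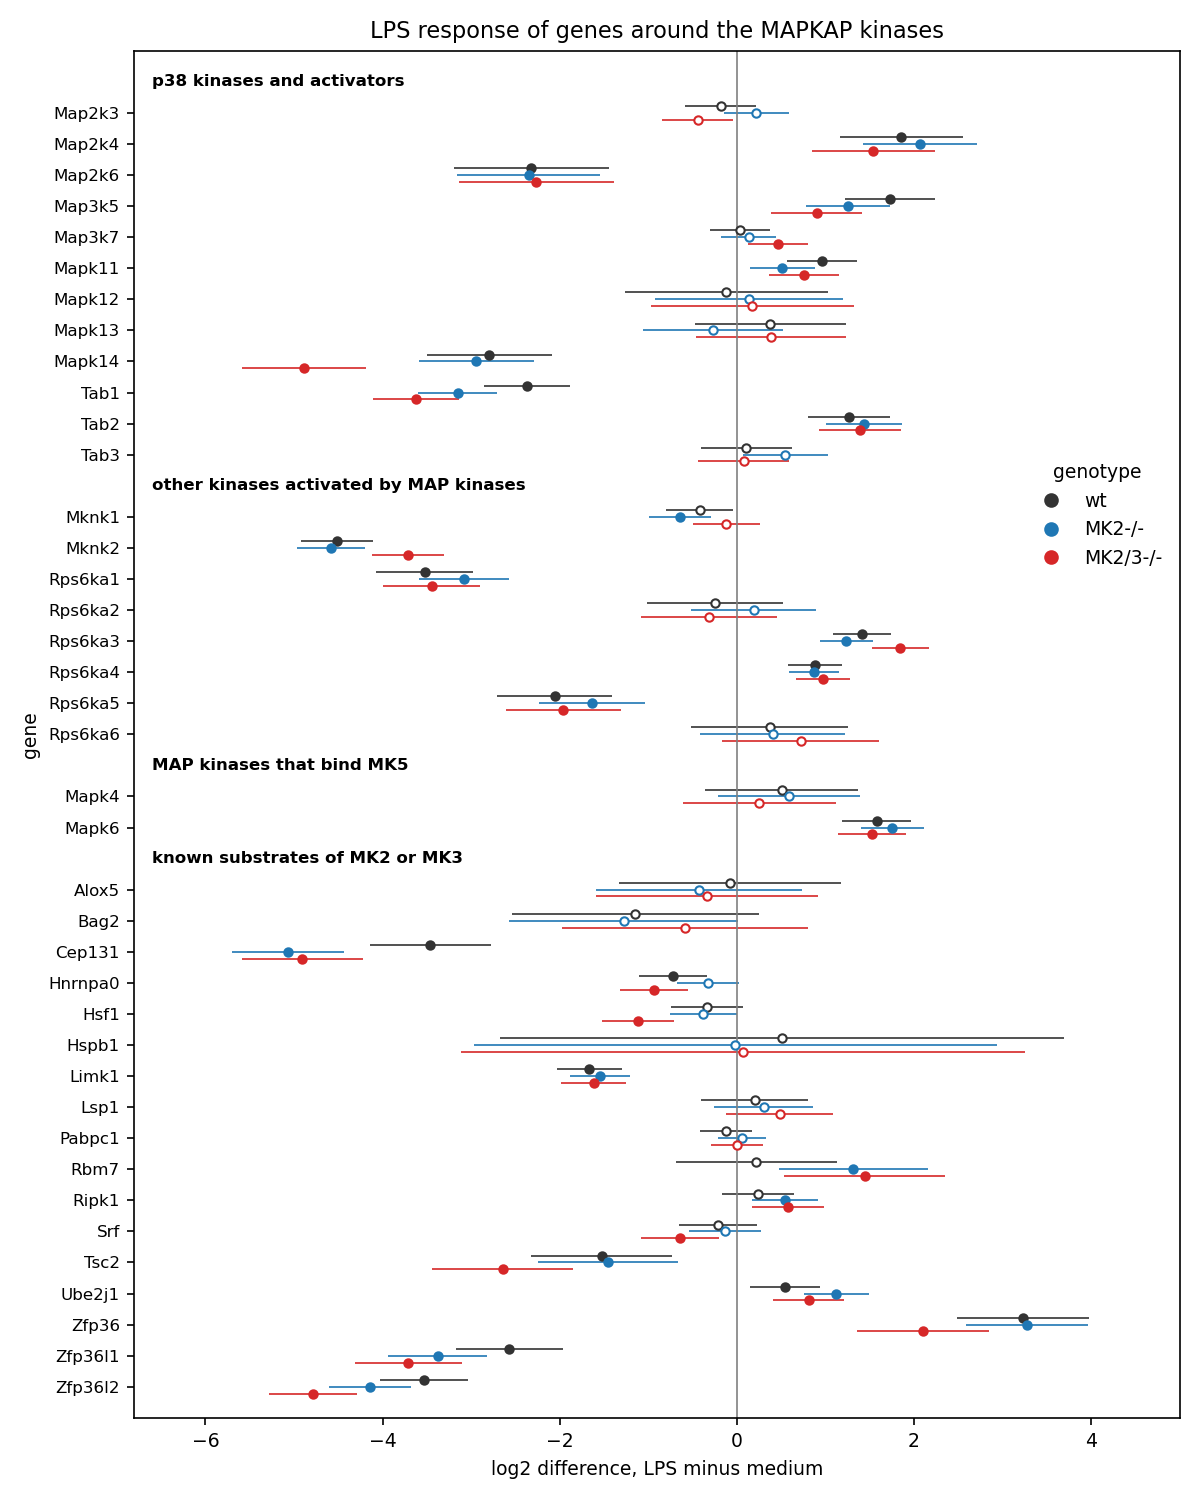
Log2 differences between LPS and medium in wt, MK2-/- and MK2/3-/- BMDM for the genes of the 4 pathway lists, with 95% confidence intervals; filled points were called at an adjusted p below 0.05. Mknk2 and Rps6ka1 show the largest falls in wt among the kinases related to MK2, at -4.51 and -3.52, and Zfp36 the largest rise among the substrates, at 3.23.

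The relatives of MK2 that MAP kinases also activate, namely the MNK, RSK and MSK kinases, were examined as genes that could be raised when MK2 or MK3 is missing. Of 8 genes, 2 rose and 3 fell with LPS in wt, 2 and 4 in MK2-/-, and 2 and 3 in MK2/3-/- BMDM, with medians of -0.33, -0.23 and -0.22, where 19.0% of all genes rose and 25.0% fell in wt, 18.6% and 29.0% in MK2-/-, and 20.8% and 29.9% in MK2/3-/- BMDM. Mknk2, encoding a kinase of the translation factor eIF4E, fell most (-4.51, -4.58 and -3.71). Rps6ka1, encoding RSK1, and Rps6ka5, encoding MSK1, also fell in all 3 genotypes (in wt -3.52 and -2.06), and Rps6ka3, encoding RSK2, rose (1.42, 1.24 and 1.85). With limma none was called between LPS-treated MK2-/- and wt BMDM, where 11.6% of genes were, 1 had an unadjusted p below 0.05, and the methods' t-test also called 0 after adjustment. Between LPS-treated MK2/3-/- and wt 2 of 8 were higher, Mknk1 (0.60, adjusted p 0.0206) and Mknk2 (0.61, adjusted p 0.0309), where 9.03% of all genes were higher, and Mknk2 also against MK2-/- (0.67, adjusted p 0.0202). Of 22 fits that left out 1 array, 1 lost the call of Mknk1, 4 that of Mknk2 against wt and 3 that against MK2-/-. The call of Mknk1 was also lost under 75th percentile scaling (0.31, limma adjusted p 0.255). Mknk1 was also higher in medium-treated MK2-/- than wt BMDM (0.56, adjusted p 0.0443). However, 12 of 22 fits that left out 1 array lost this call, as did 75th percentile scaling (0.25, limma adjusted p 0.382). Averaged over both treatments, Mknk1 (0.45, adjusted p 0.0117) and Rps6ka6, encoding RSK4 (0.99, adjusted p 0.0176, well above background on 15 of 22 arrays), were higher in MK2-/- than in wt BMDM, where 12.4% of genes were. In MK2/3-/- BMDM Mknk1 was higher (0.45, adjusted p 0.0127) and Rps6ka2, encoding RSK3, lower than in wt (-0.90, adjusted p 0.0149), where 12.2% and 18.0% of genes were. Fits without 1 array lost none of these averaged calls, but those of Mknk1 were lost under 75th percentile scaling (0.17, adjusted p 0.328, and 0.15, adjusted p 0.412). Of the MAP kinases that bind MK5, Mapk6 (ERK3) rose with LPS by 1.58, 1.76 and 1.53 and Mapk4 (ERK4) was not called, and neither was called by limma between genotypes within a treatment, where 11.6% to 25.1% of genes were under LPS. Both had an unadjusted p below 0.05 between LPS-treated MK2/3-/- and MK2-/- BMDM, and the methods' t-test called 1 of them between LPS-treated MK2-/- and wt. Averaged over both treatments, limma called both lower in MK2/3-/- than in MK2-/- BMDM, where 16.5% of all probes were called. Of 34 refits, 5 lost this call for Mapk4 and 18 for Mapk6, among them 2 and 15 that left out 1 array.

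Among 17 genes whose proteins MK2 or MK3 is known to phosphorylate, 2 rose and 6 fell with LPS in wt, 4 and 5 in MK2-/-, and 4 and 8 in MK2/3-/- BMDM, with medians of -0.21, -0.33 and -0.58, against the same 19.0% and 25.0%, 18.6% and 29.0%, and 20.8% and 29.9% of all genes. The family of mRNA-binding proteins that act on AU-rich elements was split. Zfp36, encoding tristetraprolin, rose by 3.23, 3.28 and 2.10, whereas its relatives Zfp36l1 (-2.57, -3.38 and -3.71) and Zfp36l2 (-3.53, -4.14 and -4.78) fell. Cep131, encoding a protein of centriolar satellites, also fell (-3.46, -5.07 and -4.91). Its mean signal after LPS was only 4.612 in MK2-/- and 4.502 in MK2/3-/- BMDM, near the background limit. The sizes of the Cep131 differences in these groups are therefore uncertain, here and below. Between LPS-treated MK2-/- and wt BMDM 2 of 17 were lower, against 7.46% of all genes. These were Cep131 (-1.50, adjusted p 0.00882) and Zfp36l1 (-0.95, adjusted p 0.04), the latter lost in 5 of 22 fits that left out 1 array. Between MK2/3-/- and wt 6 were lower and 1 higher, against 16.1% and 9.03% of all genes, with the largest differences for Tsc2, Cep131 (-1.61), Rbm7 (1.36) and Zfp36 (-1.07, adjusted p 0.0345, lost in 5 of 22 such fits). Tsc2, encoding a regulator of mTOR signalling, was not well above background on any LPS-treated MK2/3-/- array, so it was at least 2.45-fold lower than in wt (adjusted p 0.00143), where on each array the bound was the dimmest probe that still passed the background test. Between MK2/3-/- and MK2-/- only Hsf1, encoding a heat shock transcription factor, was called (-0.59, adjusted p 0.0365), which 5 of 22 such fits lost. In medium Limk1, encoding a kinase of the actin regulator cofilin, was called between MK2-/- and wt (-0.57, adjusted p 0.0404), which 7 of 22 fits without 1 array lost. The other 2 comparisons in medium called none with limma, with 1 gene each at an unadjusted p below 0.05, and none with the methods' t-test, which also called none between LPS-treated genotypes. Averaged over both treatments 5 of 17 were lower in MK2-/- and 3 in MK2/3-/- than in wt BMDM, where 14.5% and 18.0% of genes were. Hspb1, encoding the small heat shock protein that is a classical MK2 substrate, spread too widely to be called, with arrays of medium-treated wt from 9.28 to 15.1.

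The genes whose signal ran most like that of each kinase over the 22 arrays were listed among 17519 genes, as a description, since the arrays share genotypes, treatments and slides. For Mapkapk2 these were Timm17a (Pearson r 0.927), Pcgf3 (0.897), Tcof1 (0.868), Blzf1 (0.866) and Rab35 (0.861). Timm17a and Blzf1 lie on the chromosome of Mapkapk2, with 58 and 199 tested genes between, where 5.53% of all genes lie. When the mean of each genotype was taken out, the list became Wdr43 (0.981), Tent4a (0.980), Tapbpl (0.979), Pim1 (0.979) and Stk40 (0.978), genes that were higher after LPS and of which none lies on that chromosome. Pim1, encoding a kinase, went from a mean of 7.50 in medium-treated to 12.34 in LPS-treated wt BMDM.

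For Mapkapk3 the most similar genes included Abhd14b (0.918), Ints5 (0.917), Vps72 (0.913) and Mrps2 (0.899). Abhd14b lies on the chromosome of Mapkapk3 with 14 tested genes between, where 5.63% of all genes lie. Like Mapkapk3 it was lowest in LPS-treated MK2/3-/- BMDM, with means after LPS of 8.79 in wt, 7.94 in MK2-/- and 4.20 in MK2/3-/-. For Mapkapk5, at its brighter probe A_55_P2163009, they were Grik3 (0.824), Gabbr1 (0.817), Tollip (0.811), Gm4710 (0.809) and Cwc22 (0.800), and none lies on its chromosome.

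The 5 tested genes nearest on each side of each kinase gene were examined as well, in the gene order of GRCm38.p6. Of the 10 neighbours of Mapkapk3, 4 were called between LPS-treated MK2/3-/- and wt BMDM, 2 higher and 2 lower, and 3 in medium, against 25.1% and 1.83% of all genes. Rbm15b was lower in both treatments (-1.56, adjusted p 7.46e-05, and -0.79, adjusted p 0.0481) and Cacna2d2, encoding a calcium channel subunit, higher in both (1.18, adjusted p 0.000312, and 0.95, adjusted p 0.0189). Cacna2d2 was also higher in medium-treated MK2-/- than wt BMDM (0.60, adjusted p 0.0412). Of 22 fits that left out 1 array, 17 lost the call of Rbm15b in medium, 3 that of Cacna2d2 in medium-treated MK2/3-/- BMDM and 7 that of Cacna2d2 in medium-treated MK2-/- BMDM. Of the 10 neighbours of Mapkapk2, which include the cytokine genes Il10, Il19 and Il24, 3 were called between LPS-treated MK2-/- and wt and 4 between MK2/3-/- and wt, where 11.6% and 25.1% of all genes were. None was called in medium (1 and 2 at an unadjusted p below 0.05, 0 by the methods' t-test), where 7.45% and 1.83% of genes were. Of the 10 neighbours of Mapkapk5, 1 was called between LPS-treated MK2-/- and wt BMDM and 3 between MK2/3-/- and wt, against the same 11.6% and 25.1%, and 1 and 0 in medium, against 7.45% and 1.83% (for the 0, 1 at an unadjusted p below 0.05 and 0 by the methods' t-test).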

How the data were processed

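The authors hybridised Cy3-labelled RNA of each sample to a 1-colour Agilent array. From the 62976 spots per array, the intensity that the authors deposited as processed signal (Feature Extraction 11.0.1.1, background subtracted, not normalised between arrays) was used. The authors' log2 values, quantile normalised and centred per probe, served as an alternative.

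Control spots (3671) were left out, spots marked as outliers were set to missing, and spots of a probe were averaged before log2 values were quantile normalised over 22 arrays. The filter kept probes with an NCBI accession that were well above background on 3 or more arrays. RefSeq accessions were named through a gene table of GRCm38.p6. The array was designed on another build, so probe coordinates are not given. Group means were fitted with limma 3.58.1 (R 4.3.3) and eBayes, with Benjamini-Hochberg adjustment over 28103 probes, and a difference was called at an adjusted p below 0.05. The fit was tested on simulated data. Groups came from the labels, and the study's methods describe independent experiments. Replicate arrays differed by a median of at least 0.248 on the log2 scale, so none was counted as a copy. The number of arrays limits the precision.

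The brightest probe stood for each other gene. Named were every MAPKAP kinase probe, up to 4 called genes per list and comparison with the largest differences, the 5 most similar genes (1 is not reported here), and neighbours called in both treatments with the same sign. Hspb1 and the cytokine genes beside Mapkapk2 were chosen after their values were seen. The members and lists were chosen with earlier results of these data known. Alternatives were other scalings and filters, array weights, replicate blocks, the methods' t-test and fits that left out 1 array.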

Additional observations from a re-analysis of the deposited data

Results flagged for a closer look

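A single array stood apart at the Mapkapk5 probe A_55_P2163009, where replicate 3 of medium-treated wt BMDM had a log2 signal of 12.40 and the nearest of the others 12.23. It was the 1 of 16 groups of 4 arrays in which the gap to the nearest array, relative to the range of the group, passed Dixon's 95% critical value, which chance alone passes in about 1 in 20 groups. The same array had the lowest Mapkapk2 signal of its group, 10.78.

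Among 12 tests of the LPS response between genotypes over the 4 MAPKAP kinase probes, the 2 called were those of Mapkapk3, with a response in MK2/3-/- BMDM that differed by -2.18 from the response in wt and by -2.66 from that in MK2-/- BMDM (interactions in limma). Among 117 such tests on list genes 1 was called, that of Mapk14 between MK2/3-/- and wt BMDM, at -2.09.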

How the results depend on the processing

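All 19 called differences of Mapkapk2 and Mapkapk3 kept their call and sign in 659 refits. The fall of Mapkapk3 with LPS in MK2-/- BMDM, not called at -0.51, was called with probes well above background on all arrays (-0.51, adjusted p 0.0431), with array weights (-0.53, adjusted p 0.0121), and without MK2-/- medium replicate 2 or MK2/3-/- LPS replicate 4. Fits without 1 array gave -0.67 to -0.37 (adjusted p 0.0171 to 0.198). Scaling to the 75th percentile moved the median of all probes by 0.28, 0.26 and 0.23 in the LPS comparisons of wt, MK2-/- and MK2/3-/- BMDM and by 0.12 and 0.10 between MK2/3-/- and wt after LPS and over both treatments. Under it the mean difference of Mapkapk5 between MK2/3-/- and wt became called, at -0.43 and -0.38, or -0.46 and -0.41 relative to the median of all probes. Over all refits, single comparisons of the Mapkapk5 probes were called in 25 of 504 and 7 of 519 cases, 4 and 5 of them under 75th percentile scaling. Without MK2-/- arrays of letter c, an alternative chosen after seeing the data, the within-array differences of the Mapkapk5 probes were 0.17 for the genotypes and -0.13 for LPS. They were 0.15 and -0.042 under 75th percentile scaling and 0.18 and -0.14 with the normexp background correction, and fits without 1 array gave 0.15 to 0.21 and -0.16 to -0.12.

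With the replicate block, as number or as letter within genotype, the fall of Mapkapk3 in MK2-/- BMDM was called (-0.51, adjusted p 0.0483 and 0.0431), and no other call of Mapkapk2 or Mapkapk3 changed. The LPS differences of the Mapkapk5 probe A_55_P2049256 also became called in MK2-/- (0.30, adjusted p 0.0413 and 0.0377) and MK2/3-/- BMDM (0.33, adjusted p 0.037 and 0.0343). LPS-treated and medium-treated arrays of the same number correlated above 0.1 in 7 of 10 pairs (lowest -0.07), against 5 of 30 of unlike number. Since 3 pairs did not, the numbers were not taken as pairs. Arrays of the same letter also correlated above 0.1 in 7 of 10 pairs (lowest -0.07), against 5 of 30 of unlike letter. The main fit used neither number nor letter, and the differences named in this paragraph as called with a block were not called without it. The labelled age was the same in 10 of 10 pairs of the same letter and 8 of 10 of the same number. The interactions called over all probes went from 0, 236 and 16 to 7, 450 and 27 with the number and to 11, 473 and 27 with the letter.

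The 220 called differences of list genes and neighbours lost their call in 536 of 7615 refits and changed sign in 0. Of the counts of list genes called, 18 of 48 moved by more than 1.5 times under 75th percentile scaling, among them the substrates called between MK2/3-/- and wt BMDM over both treatments, from 3 to 11, and 14 of 36 under the methods' t-test, which was not run for means of treatments or interactions. The interaction of Mapk14 was also lost under 75th percentile scaling (-1.95, adjusted p 0.119).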
